A study of Arabidopsis thaliana with 18 samples.

Results

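The genes described here fell at least 2-fold in transcript signal in wild-type Arabidopsis seedlings within 2 h of first light and were back near the dark level at 8 h. They were chosen by that wild-type pattern. On the log2 scale, where a difference of 1 is a 2-fold change, the mean at 2 h of light had to lie at least 1.0 below the dark mean, and the mean at 8 h no more than 0.2 below it. Of the 6514 probe sets with a single gene locus in the deposited table, 40 met the rule, each a different locus, which is 0.614 percent. They lie on all 5 nuclear chromosomes, with 10 on chromosome 1, 8 on chromosome 2, 6 on chromosome 3, 4 on chromosome 4 and 12 on chromosome 5. The rule had no upper bound at 8 h, so a member could also end above the dark level.

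Whole seedlings were measured on 18 Affymetrix ATH1 arrays. The jmj17-1 mutant, which carries an allele of the histone H3K4 demethylase gene JMJ17 in the Col-0 background, and wild-type Col-0 were both grown without sucrose for 4 days in the dark and then exposed to light for 2, 4 or 8 h. In each genotype 3 arrays were of dark seedlings and 2 of seedlings at each time in light. The labels do not say whether replicates came from separate cultures, so each p-value reflects no more than the variation among the arrays at hand, possibly technical, and the number of arrays limits the precision. JMJ17 itself is not analysed here, so the deposited values gave no check of the mutant label. In RNA of whole seedlings, fewer cells of a type and less RNA per cell cannot be told apart.

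A seedling that germinates in darkness grows on its reserves with an elongated stem and unopened cotyledons, and light starts de-etiolation, in which the cotyledons open and green. Photoreceptors change the transcription of a large part of the genome within hours, and the circadian clock is set by the same light. Many genes that are active in a starved, dark-grown plant are repressed while photosynthesis builds up, and some light responses pass quickly while others last.

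Every genotype and time below rests on the column titles of one deposited table. A second deposited file holds the same arrays, but 16 of its 18 columns carry the title of another array, and which labelling is right was not settled. Read by its own labels, the second file had 459 genes that met the rule, and 0 of them were among the 40. The median within-group SD was 0.0958 on the log2 scale with the titles used here and 0.202 with the other labels.

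Transcript levels are given as log2 of the deposited intensity, which the authors had normalized. Median intensity per array ran from 144.4 to 160.8. Among the jmj17-1 dark arrays replicate 2 stood apart, with correlations of 0.985 to both others, against 0.995 between those. Over the members its values lay at a median of -0.08 from the mean of the other 2 arrays, with a range of -0.59 to 0.37, and results that rest on it are given with and without it. Correlations between replicates are not given for the other groups, so other arrays may differ as much. The 2 wild-type 4 h arrays had SDs of 0.50 for AT5G06800, 0.45 for UGT85A5 and 0.41 for COR27, but 0.02 for IDD2 and 0.01 for WCRKC1. The deposited table holds 6847 of the array's 22810 probe sets, and 99.8 percent of those kept passed when jmj17-1 at 2 h was set against its dark arrays. Passing there is thus largely a property of the table. How its probe sets were selected was not established, and a selection on that comparison is inferred from this share alone. Only direction and size are read from that comparison, and these are limited by the same selection.

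Because the wild-type values at 2 h and 8 h chose the members, they are a description and carry no test. The median wild-type difference at 2 h of light from dark was -1.24, with a range of -1.74 to -1.002, against -0.21 over all probe sets. The 2 h arrays lay apart from the dark arrays in all 40 members, as they did in 93.2 percent of all probe sets. At 8 h the median difference from dark was -0.03, with a range of -0.20 to 0.96, and 10 members stood more than 0.2 above their dark level.

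Most genes that dipped missed the 8 h threshold. In wild type 500 probe sets of 1 locus were at least 1.0 lower at 2 h, and 460 of these missed the 8 h threshold, so the members were 8.0 percent of the early falls. Just inside the 2 h threshold were AT2G31810 (-1.002), AT1G16170 (-1.01) and RIBA2 (-1.01), the last a gene of riboflavin synthesis. The nearest genes outside were AT3G52060 at -0.9995, IGMT5 at -0.9977, whose 8 h difference was 0.55, and AT5G65660 at -0.98. At the 8 h threshold AT4G14500 (-0.198), RMA1 (-0.194) and AT5G06800 (-0.194) were the last inside. AT3G59940 (-0.209), the starvation marker DIN10 (-0.220) and AT3G16120 (-0.229) were the first outside.

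The jmj17-1 arrays played no part in the rule and give a second reading of the same time course, though not an independent one. The deposited table holds almost only probe sets that pass in jmj17-1 at 2 h against dark, so small changes there could hardly enter. The jmj17-1 changes at 2 h, and those at 8 h against 2 h, are thus partly set by that selection. All 40 members were lower in jmj17-1 at 2 h of light than in the dark, where 57.1 percent of all probe sets were called lower. No p-value is given for that comparison, since nearly every probe set in the table passes it. Elsewhere a gene passed where limma's Benjamini-Hochberg adjusted p was under 0.05. The median difference was -1.15, with a range of -1.95 to -0.49, beside a median of -0.34 over all probe sets. At 8 h against 2 h of light, 39 members were higher and passed and 0 were lower, where 23.5 percent of all probe sets passed as higher and 31.3 percent as lower. The median there was 1.22, with a range of 0.39 to 2.304, beside -0.05 over all probe sets. The member that did not pass was AT5G06800, annotated to transcriptional regulation, at 0.39 ± 0.18 (SE, adjusted p = 0.0791), and it passed without jmj17-1 dark replicate 2 (adjusted p = 0.0405).

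At 8 h in jmj17-1 the median over the members was near the dark level, and few members passed as lower. Against dark, 4 members were lower and passed, where 47.7 percent of all probe sets passed as lower. A further 14 were higher and passed, where 31.1 percent of all probe sets did so, and 22 did not pass. The median was 0.10, with a range of -0.57 to 0.69, beside -0.19 over all probe sets. Without jmj17-1 dark replicate 2 the counts were also 4 lower and 14 higher, with 15 of the 18 calls shared, and AT5G06800 passed as lower (-0.50, adjusted p = 0.00762). The 4 lower calls became 2 when jmj17-1 8 h replicate 1 or jmj17-1 dark replicate 1 was left out.

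The 460 wild-type early falls that missed the 8 h threshold can be read on the same mutant arrays. Their median wild-type difference at 8 h was -1.39, though 17 of them lay no more than 0.4 below dark. All 460 were lower in jmj17-1 at 2 h than in the dark, with a median of -1.35. At 8 h against dark, 434 of them passed as lower and 0 as higher, with a median of -1.31. From 2 h to 8 h of light 148 passed as higher and 147 as lower, with a median of -0.01. At 4 h against dark 420 passed as lower and 4 as higher, with a median of -1.03.

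**Figure D1:**
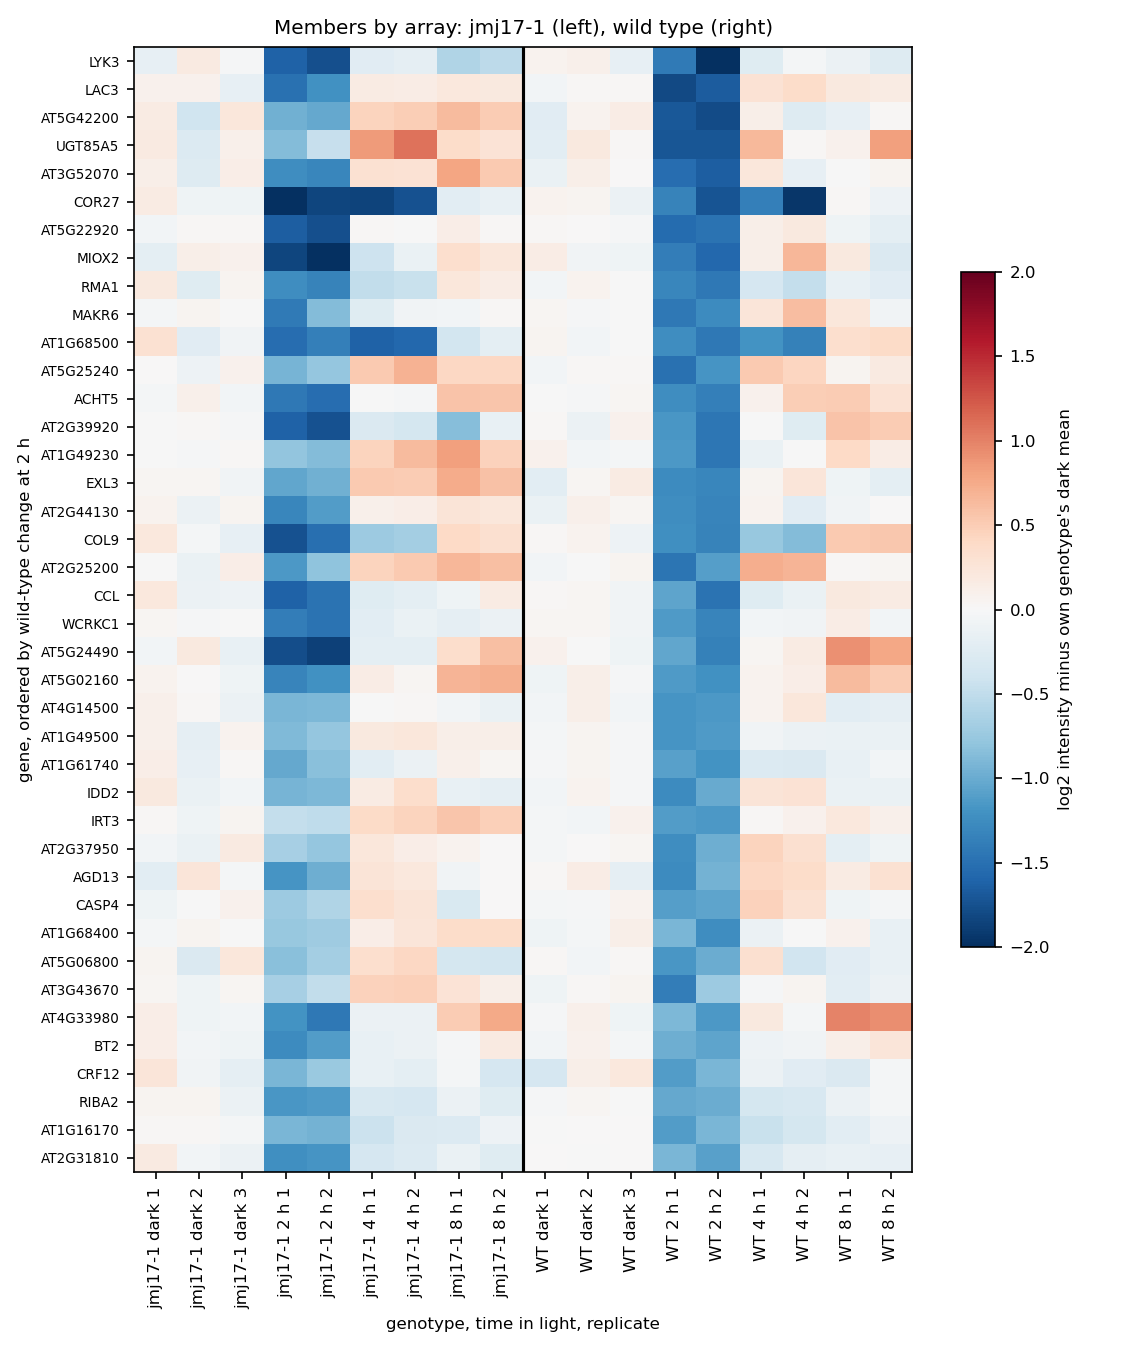
Log2 intensity of the 40 members on each of the 18 arrays, as the difference from the dark mean of the same genotype (blue lower, red higher), with jmj17-1 arrays left of wild-type arrays and genes ordered by the wild-type difference at 2 h. The 2 h columns are blue in both genotypes, while at 4 h COR27, AT1G68500 and COL9 are the darkest blue.

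COR27 encodes a small transcriptional repressor that connects light and cold signals to the circadian clock. In jmj17-1 it read 9.01, 8.76 and 8.76 in the dark, 6.77 and 7.01 at 2 h, 6.99 and 7.11 at 4 h, and 8.63 and 8.69 at 8 h. Wild type had 8.79, 8.77 and 8.60 in the dark, 7.38 and 6.99 at 2 h, 7.36 and 6.78 at 4 h, and 8.74 and 8.62 at 8 h. In both genotypes the 2 h and 4 h arrays were low together and all lay below every dark and 8 h array. The jmj17-1 differences from dark were -1.95 ± 0.15 (SE) at 2 h and -1.79 ± 0.15 at 4 h (adjusted p = 7.58e-08 at 4 h). Between 4 h and 8 h of light it was 1.61 ± 0.17 higher at 8 h (adjusted p = 6.35e-06).

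COL9, also called BBX7, is a B-box protein of the CONSTANS-like family that delays flowering. In jmj17-1 the values were 6.94, 6.69 and 6.57 in the dark, 4.99 and 5.23 at 2 h, 6.002 and 6.05 at 4 h, and 7.13 and 7.05 at 8 h. In wild type they were 6.74, 6.78 and 6.62 in the dark, 5.49 and 5.38 at 2 h, 5.95 and 5.84 at 4 h, and 7.23 and 7.24 at 8 h. The course was stepwise, lowest at 2 h, partly back at 4 h and above all dark arrays at 8 h in both genotypes. In jmj17-1 it differed from dark by -0.70 ± 0.10 at 4 h (adjusted p = 2.38e-05) and by 0.36 ± 0.10 at 8 h (adjusted p = 0.00553).

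AT4G33980, which the deposited annotation ties to circadian rhythm, ended farthest above the dark level in wild type, at 0.96. In jmj17-1 it read 7.06, 6.85 and 6.87 in the dark, 5.73 and 5.498 at 2 h, 6.80 and 6.81 at 4 h, and 7.44 and 7.68 at 8 h. Wild type read 6.79, 6.92 and 6.74 in the dark, 5.92 and 5.66 at 2 h, 7.01 and 6.77 at 4 h, and 7.81 and 7.75 at 8 h. All 8 h arrays lay above all dark arrays, and in jmj17-1 the difference was 0.63 ± 0.11 (adjusted p = 0.000108). BT2, a BTB and TAZ domain adaptor that responds to sugar, nitrogen and time of day, had the same course in both genotypes. Its jmj17-1 arrays read 11.71, 11.53 and 11.49 in the dark, 10.32 and 10.46 at 2 h, 11.43 and 11.46 at 4 h, and 11.56 and 11.76 at 8 h. Its wild-type arrays read 11.49, 11.64 and 11.51 in the dark, 10.57 and 10.49 at 2 h, 11.45 and 11.48 at 4 h, and 11.67 and 11.79 at 8 h. The 2 h arrays were the lowest, and at 4 h all arrays lay just below the dark arrays of their genotype. The jmj17-1 value at 8 h differed from dark by 0.08 ± 0.09 (adjusted p = 0.414).

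In the deposited annotation, 4 of the 40 members carry a circadian term, against 87 of 6514 loci (1.34 percent): COL9, AT4G33980, BT2 and RIBA2. A term for response to light was carried by 0 members and by 3.39 percent of all loci. Other groups of terms were also counted. Terms for abscisic acid were carried by 3 members (4.38 percent of all loci), cold by 2 (2.72 percent) and defense by 2 (9.86 percent). Terms for sugar or starvation, auxin and nitrogen were each carried by 1 member (5.14, 3.91 and 1.63 percent of all loci). Ubiquitin terms are given further below. All these are counts of annotation, without a test. No core clock gene was among the members. Of 25 listed clock genes 13 were measured, and in jmj17-1 at 2 h against dark 10 of them were higher and 3 lower, with a median of 1.08. At 8 h against dark 6 clock genes passed as higher and 5 as lower, with a median of 0.08. Of all probe sets 57.1 percent passed as lower in jmj17-1 at 2 h against dark. At 8 h against dark 31.1 percent of them passed as higher and 47.7 percent as lower. The listed clock gene with the lowest wild-type 2 h value was RVE2, at -0.55, which then stood at -1.03 at 4 h and 0.36 at 8 h. In jmj17-1 RVE2 stood at -1.37 at 2 h, -1.37 at 4 h and -0.52 at 8 h, still below dark.

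A fall that lasted through 4 h set 3 members apart from the others in wild type. The median wild-type difference from dark at 4 h was -0.01, and 36 members lay within 0.5 of the dark mean. COR27 stood at -1.65, AT1G68500 at -1.27 and COL9 at -0.82. AT2G25200 was the member more than 0.5 above dark, at 0.70. The arrays used here include the dark arrays that chose the members, so no test is given.

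The same 3 genes were lowest in jmj17-1 at 4 h. Against dark, 7 members were lower and passed, where 44.4 percent of all probe sets did so, and 11 were higher, where 31.9 percent did so. The median was 0.01, beside -0.14 over all probe sets. Without jmj17-1 dark replicate 2, 9 were higher and 8 lower, with 15 calls shared. AGD13 (0.35, adjusted p = 0.0164) and AT1G61740 (-0.24, adjusted p = 0.0182) passed then.

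AT1G68500, which has no annotated process, read 8.38, 7.85 and 8.01 in jmj17-1 in the dark, 6.55 and 6.71 at 2 h, 6.46 and 6.51 at 4 h, and 7.72 and 7.88 at 8 h. In wild type it read 7.90, 7.79 and 7.83 in the dark, 6.59 and 6.41 at 2 h, 6.65 and 6.49 at 4 h, and 8.17 and 8.23 at 8 h. The 2 h and 4 h arrays were low together in both genotypes, and at 8 h wild type lay above its dark arrays while jmj17-1 overlapped them. The jmj17-1 difference from dark was -1.60 ± 0.12 at 4 h (adjusted p = 3.09e-08) and -0.28 ± 0.12 at 8 h (adjusted p = 0.0503). Without jmj17-1 dark replicate 2 the 8 h difference was -0.40 and passed (adjusted p = 0.00513).

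The other 4 members that were lower in jmj17-1 at 4 h differed less. RMA1, a membrane-anchored RING ubiquitin ligase of the endoplasmic reticulum, was at -0.47 ± 0.11 (adjusted p = 0.000873), AT1G16170 at -0.36 ± 0.08 (adjusted p = 0.00107), RIBA2 at -0.32 ± 0.07 (adjusted p = 0.00115) and AT2G31810 at -0.30 ± 0.09 (adjusted p = 0.00676). AT2G31810 no longer passed without jmj17-1 4 h replicate 1 (-0.27, adjusted p = 0.0571).

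Members already above dark at 4 h in jmj17-1 were led by UGT85A5, a UDP-glucosyltransferase gene, at 0.97 ± 0.22 (adjusted p = 0.0010). AT5G25240 followed at 0.61 ± 0.10, AT1G49230 at 0.54 ± 0.12, EXL3, an EXORDIUM-like gene, at 0.52 ± 0.10, and AT2G25200 at 0.48 ± 0.11, with adjusted p from 5.2e-05 to 0.00143. AT5G42200, a gene for a ubiquitination enzyme, was at 0.47 ± 0.16, AT3G43670, annotated to amine metabolism, at 0.47 ± 0.14, and the metal transporter gene IRT3 at 0.41 ± 0.08. CASP4 was at 0.30 ± 0.10, IDD2 at 0.26 ± 0.10 and AT1G49500 at 0.21 ± 0.08. Without jmj17-1 dark replicate 2 the calls for AT5G42200 (0.28, adjusted p = 0.0594), IDD2 (0.19, adjusted p = 0.105) and AT1G49500 (0.13, adjusted p = 0.138) were lost. Those for AT5G42200 and AT1G49500 were also lost without either jmj17-1 4 h array, that for IDD2 without jmj17-1 dark replicate 3 or 4 h replicate 2, and that for CASP4 without jmj17-1 4 h replicate 1 (0.26, adjusted p = 0.0811).

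**Figure D2:**
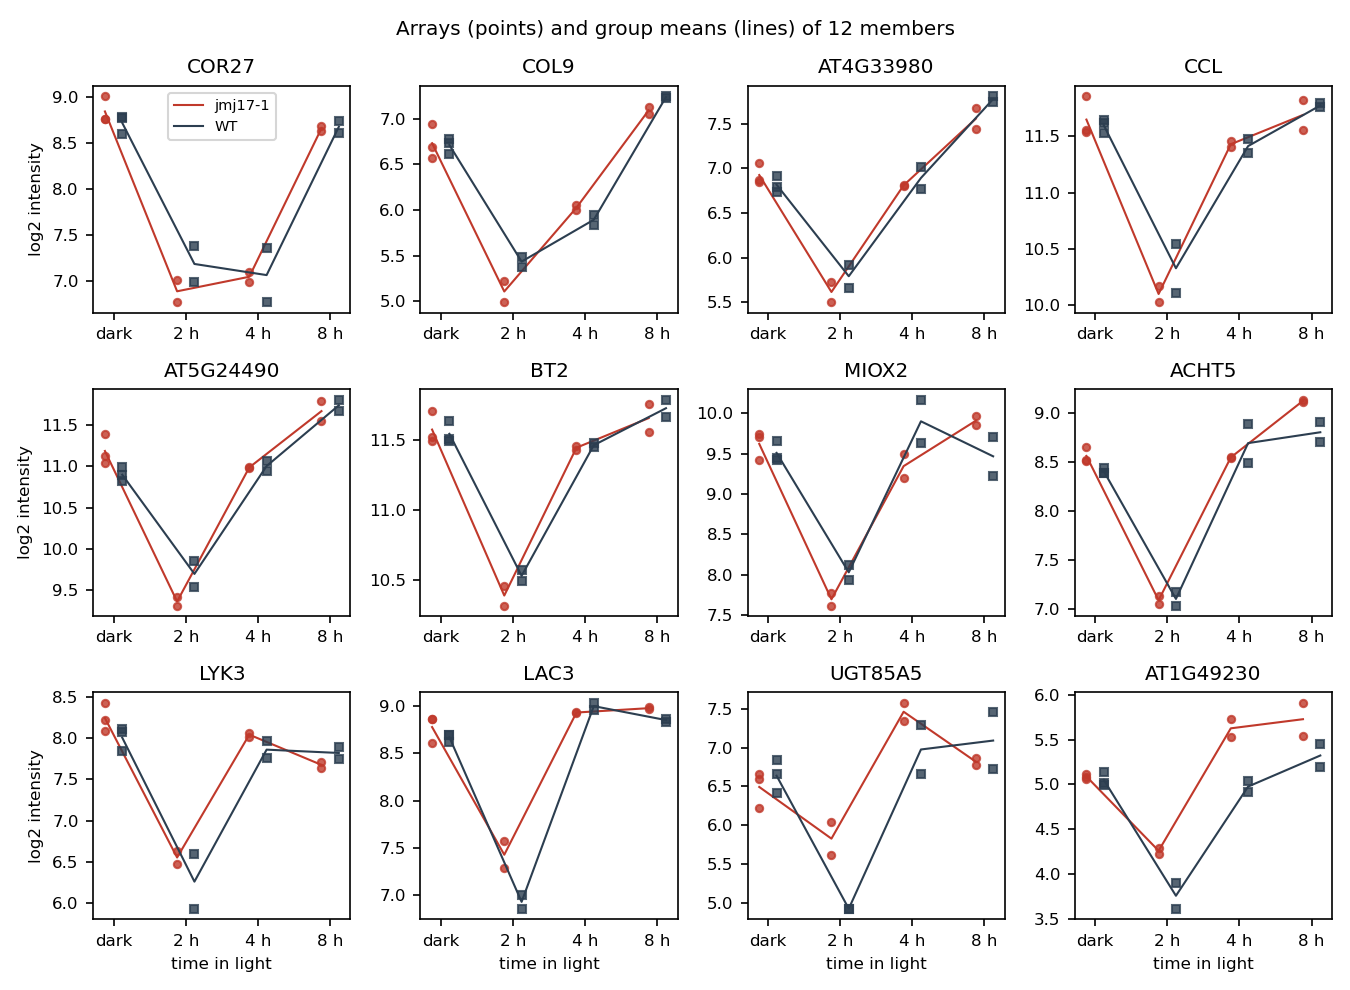
Log2 intensity of 12 members on every array (points) with group means (lines), jmj17-1 in red and drawn left of wild type in dark blue, at 4 equally spaced steps from dark to 8 h of light. COR27 stays low at 4 h, BT2 and LAC3 are near or above dark by 4 h, and AT1G49230 lies higher in jmj17-1 than in wild type at 4 h.

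The interval from 4 h to 8 h in jmj17-1 shares no array with the rule or with the jmj17-1 comparison of 2 h against dark. Whether the selection of the table used these arrays is not known. In that interval 9 members were higher at 8 h and passed, where 14.8 percent of all probe sets did so, and 3 were lower, where 20.0 percent did so. The median was 0.12, beside -0.02 over all probe sets. Without jmj17-1 dark replicate 2, which enters here through the spread alone, 11 were higher and 4 lower, the added calls being AT3G52070, AT1G61740 and UGT85A5. After COR27, the highest were AT1G68500 at 1.32 ± 0.14 (adjusted p = 6.35e-06), COL9 at 1.06 ± 0.12 (adjusted p = 8.94e-06), AT4G33980 at 0.75 ± 0.12 (adjusted p = 0.000377) and AT5G24490 at 0.68 ± 0.13 (adjusted p = 0.000939). RMA1 was 0.66 ± 0.12 higher, AT5G02160 0.60 ± 0.09, ACHT5 0.58 ± 0.11 and MIOX2 0.56 ± 0.18, with adjusted p from 0.000207 to 0.0273. The MIOX2 call was lost without jmj17-1 4 h replicate 1 (0.42, adjusted p = 0.204), without jmj17-1 8 h replicate 1 (0.51, adjusted p = 0.132) and without jmj17-1 8 h replicate 2 (0.61, adjusted p = 0.0683).

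The members that were lower at 8 h than at 4 h in jmj17-1 were AT5G06800, CASP4 and IDD2. AT5G06800 read 7.34, 6.996 and 7.51 in the dark, 6.45 and 6.61 at 2 h, 7.61 and 7.70 at 4 h, and 6.92 and 6.92 at 8 h in jmj17-1. In wild type it read 7.41, 7.33 and 7.41 in the dark, 6.22 and 6.39 at 2 h, 7.70 and 6.997 at 4 h, and 7.15 and 7.23 at 8 h. It dipped, returned at 4 h and was lower again at 8 h in jmj17-1, by -0.73 ± 0.18 (adjusted p = 0.00585), while the 2 wild-type arrays at 4 h lay on either side of their dark and 8 h arrays. CASP4 was at -0.45 ± 0.10 (adjusted p = 0.00424) and IDD2, a zinc finger transcription factor, at -0.42 ± 0.11 (adjusted p = 0.00887). CASP4 did not pass without jmj17-1 8 h replicate 1 (-0.29, adjusted p = 0.0724), nor IDD2 without jmj17-1 4 h replicate 2 (-0.33, adjusted p = 0.105) or jmj17-1 8 h replicate 2 (-0.40, adjusted p = 0.0518).

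A translation gene and a thioredoxin gene came back past the dark level at 8 h in both genotypes. AT5G24490, annotated to translation, read 11.13, 11.39 and 11.04 in jmj17-1 in the dark, 9.41 and 9.32 at 2 h, 10.99 and 10.99 at 4 h, and 11.55 and 11.79 at 8 h. Wild type read 10.99, 10.89 and 10.82 in the dark, 9.85 and 9.54 at 2 h, 10.95 and 11.06 at 4 h, and 11.81 and 11.67 at 8 h. In both genotypes all 8 h arrays lay above all dark arrays. In jmj17-1 the 8 h level was 2.304 ± 0.13 above the 2 h level (adjusted p = 3.54e-09), the highest of the members, and 0.48 ± 0.12 above dark (adjusted p = 0.00144).

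ACHT5, an atypical thioredoxin of the plastid, read 8.52, 8.66 and 8.51 in jmj17-1 in the dark, 7.14 and 7.05 at 2 h, 8.56 and 8.54 at 4 h, and 9.14 and 9.11 at 8 h. In wild type it read 8.40, 8.39 and 8.45 in the dark, 7.17 and 7.04 at 2 h, 8.498 and 8.90 at 4 h, and 8.91 and 8.70 at 8 h. In both genotypes the 8 h arrays were above the dark arrays, by 0.56 ± 0.10 in jmj17-1 (adjusted p = 0.000151). WCRKC1, another thioredoxin-like gene, dipped by -1.43 ± 0.08 in jmj17-1 at 2 h and differed from dark by -0.15 ± 0.08 at 8 h (adjusted p = 0.115). AT5G02160 had the highest jmj17-1 value at 8 h against dark, 0.69 ± 0.08 (adjusted p = 2.15e-06), and stood at 0.57 in wild type. RIBA2 was at -0.18 ± 0.07 there (adjusted p = 0.0375) and lost that call without jmj17-1 dark replicate 1, jmj17-1 dark replicate 2 or jmj17-1 8 h replicate 2, at -0.15, -0.15 and -0.11.

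LYK3, a LysM receptor-like kinase gene, had the lowest wild-type value at 2 h against dark. In jmj17-1 it read 8.08, 8.43 and 8.22 in the dark, 6.63 and 6.48 at 2 h, 8.01 and 8.07 at 4 h, and 7.63 and 7.72 at 8 h. In wild type it read 8.07, 8.10 and 7.84 in the dark, 6.59 and 5.93 at 2 h, 7.76 and 7.96 at 4 h, and 7.89 and 7.75 at 8 h. The 8 h arrays were below all dark arrays in jmj17-1, at -0.57 ± 0.15 (adjusted p = 0.00352), and overlapped them in wild type, at -0.19.

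LAC3, a laccase gene, read 8.86, 8.86 and 8.61 in jmj17-1 in the dark, 7.29 and 7.57 at 2 h, 8.94 and 8.93 at 4 h, and 8.99 and 8.97 at 8 h. Wild type read 8.62, 8.70 and 8.70 in the dark, 6.86 and 7.005 at 2 h, 8.96 and 9.04 at 4 h, and 8.87 and 8.84 at 8 h. All 4 h and 8 h arrays were above the dark arrays of their genotype, though the jmj17-1 differences of 0.15 ± 0.10 at 4 h (adjusted p = 0.159) and 0.20 ± 0.10 at 8 h (adjusted p = 0.0701) did not pass. The 8 h difference was 0.24 and passed without jmj17-1 dark replicate 1 (adjusted p = 0.0481) or replicate 2 (adjusted p = 0.0426). MIOX2, a myo-inositol oxygenase whose product feeds cell wall sugars, read 9.42, 9.74 and 9.70 in jmj17-1 in the dark, 7.78 and 7.62 at 2 h, 9.20 and 9.49 at 4 h, and 9.96 and 9.85 at 8 h. Wild type read 9.66, 9.44 and 9.42 in the dark, 8.12 and 7.94 at 2 h, 9.63 and 10.17 at 4 h, and 9.71 and 9.22 at 8 h. At 4 h both jmj17-1 arrays were below both wild-type arrays.

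CASP4, which encodes a scaffold protein of the Casparian strip in the root endodermis, read 8.99, 9.07 and 9.16 in jmj17-1 in the dark, 8.34 and 8.46 at 2 h, 9.41 and 9.33 at 4 h, and 8.77 and 9.08 at 8 h. Wild type read 9.02, 9.04 and 9.13 in the dark, 7.96 and 8.01 at 2 h, 9.52 and 9.36 at 4 h, and 8.98 and 9.03 at 8 h. IRT3 had the smallest jmj17-1 dip, -0.49 ± 0.08, and was 0.52 ± 0.08 above dark at 8 h (adjusted p = 1.55e-05). Of 12 listed root markers, none a member, 4 were measured. In jmj17-1 the sum of their intensities was 2332 to 2491 in the dark, 1941 to 1952 at 2 h, 2204 to 2307 at 4 h and 2615 to 2715 at 8 h. In wild type it was 2419 to 2475, 1723 to 1877, 2077 to 2304 and 2300 to 2344 at the same times. The root marker sum was thus lowest at 2 h in both genotypes, though in jmj17-1 at 2 h against dark 1 root marker passed as higher and 3 as lower. Of all probe sets 57.1 percent passed as lower in that comparison.

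Markers of other cell types also moved. For 3 measured of 6 vascular markers the sum in jmj17-1 was 693 to 854 in the dark, 451 to 550 at 2 h, 562 to 588 at 4 h and 507 to 539 at 8 h. The wild-type sum was 727 to 780, 443 to 456, 544 to 598 and 461 to 494. Vascular markers were thus low at 2 h and still below dark at 8 h. For 5 measured of 13 markers of epidermis and stomata the jmj17-1 sum was 2023 to 2337, 1562 to 1572, 1857 to 1922 and 1271 to 1349 at the same times, and the wild-type sum 1771 to 1904, 1091 to 1253, 1407 to 1842 and 1274 to 1329. These sums were also lower at 2 h and at 8 h than in the dark in both genotypes. The single markers were split. Against dark in jmj17-1, 2 passed as higher and 3 as lower at 2 h, and 2 as higher and 2 as lower at 8 h. Of all probe sets 57.1 percent passed as lower at 2 h, and at 8 h 31.1 percent as higher and 47.7 percent as lower. The 1 measured seed storage marker of 5 read at most 168 on any array. In jmj17-1 it was 19 to 48 in the dark, 79 to 98 at 2 h, 88 to 168 at 4 h and 69 to 91 at 8 h. In wild type it was 84 to 166, 74 to 99, 45 to 104 and 108 to 144 at the same times. Its dark ranges did not overlap between the genotypes, a difference that was not tested. No marker was listed at 0, and the part of these cell types in the members' dip was not tested.

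In the deposited annotation 4 of 40 members carry a ubiquitin term, against 4.33 percent of all loci. AT5G22920, a RING zinc finger gene involved in stomatal opening, had one of the deepest dips in both genotypes. It read 12.07, 12.16 and 12.15 in jmj17-1 in the dark, 10.48 and 10.37 at 2 h, 12.14 and 12.12 at 4 h, and 12.26 and 12.15 at 8 h. In wild type it read 12.07, 12.06 and 12.03 in the dark, 10.51 and 10.57 at 2 h, 12.17 and 12.25 at 4 h, and 11.97 and 11.85 at 8 h. In both genotypes the 2 h arrays lay below all other arrays, and the jmj17-1 dip was -1.70 ± 0.07.

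AT5G42200 read 8.11, 7.56 and 8.18 in jmj17-1 in the dark, 6.99 and 6.93 at 2 h, 8.40 and 8.45 at 4 h, and 8.59 and 8.46 at 8 h. Wild type read 7.99, 8.29 and 8.36 in the dark, 6.52 and 6.43 at 2 h, 8.33 and 7.96 at 4 h, and 8.06 and 8.24 at 8 h. The jmj17-1 level at 8 h was above all its dark arrays, by 0.57 ± 0.16 (adjusted p = 0.00463), while wild type overlapped. AT2G44130, also called KISS ME DEADLY 3, belongs to a group of F-box genes that act on phenylpropanoid enzymes, and it dipped by -1.22 ± 0.10 in jmj17-1. It was 0.24 ± 0.10 above dark at 8 h (adjusted p = 0.0378), a call lost without jmj17-1 dark replicate 2 (0.18, adjusted p = 0.117) and without either jmj17-1 8 h array.

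**Figure D3:**
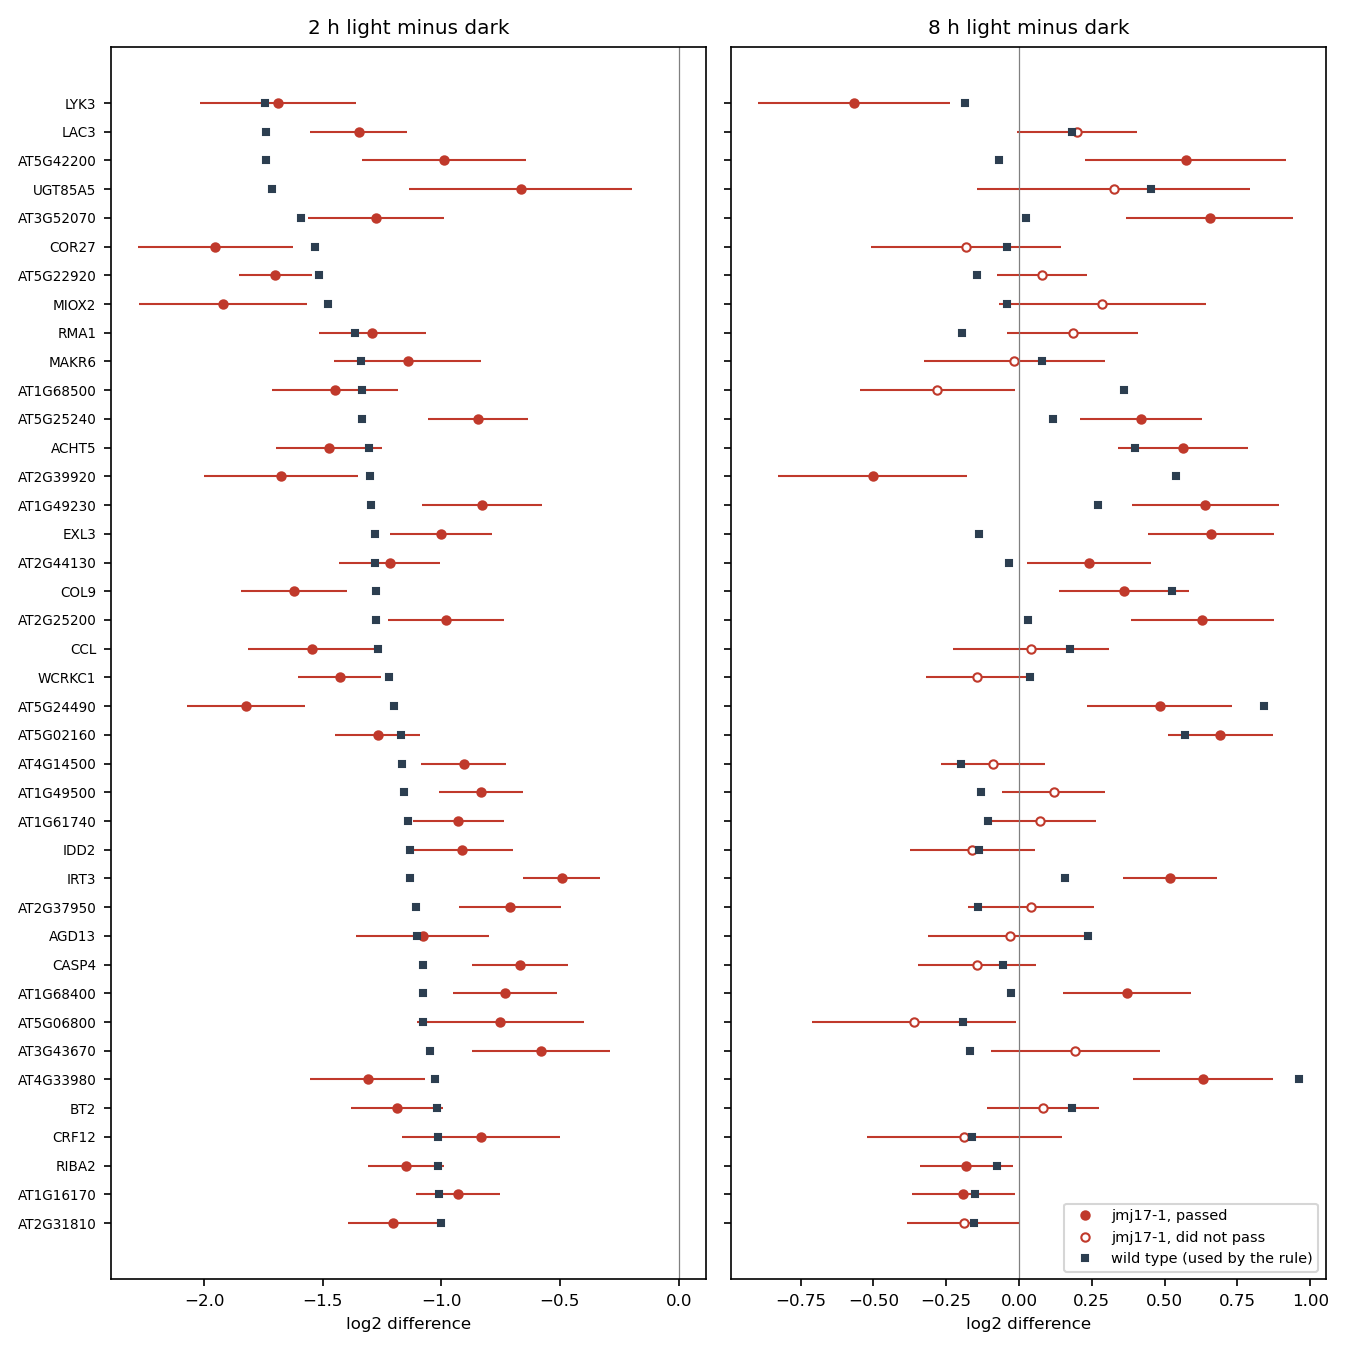
Log2 difference from dark at 2 h (left) and 8 h of light (right) for the 40 members, ordered from the lowest wild-type 2 h value at the top. Red circles are jmj17-1 with the 95 percent interval as a bar, filled where the test passed, and dark blue squares are the wild-type means that chose the members. At 2 h, where nearly every probe set of the table passes, all 40 circles lie below 0, and at 8 h 4 filled circles lie below 0 and 14 above.

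The starvation list held the one member found on any of 20 listed pathways, BT2. All 16 of its genes were measured. In jmj17-1 all 16 were lower at 2 h than in the dark, with a median of -1.17, where 57.1 percent of all probe sets passed as lower. At 8 h against 2 h 15 passed as higher, with a median of 0.62, where 23.5 percent of all probe sets did so. Against dark at 8 h, 12 passed as lower, where 47.7 percent of all probe sets did so, and 0 as higher, with a median of -0.50. Thus most of the list also turned upward after 2 h, but most stayed below dark. Other listed genes with low wild-type values at 2 h were BCAT2, of branched-chain amino acid breakdown, at -1.68, MCCB, of leucine breakdown, at -1.54, and SEN1, a marker of senescence and darkness, at -1.46. Their wild-type values at 8 h were -1.42, -0.99 and -0.85. Beside these falls, all 6 measured green mesophyll markers of 7 listed were higher in jmj17-1 at 2 h, 4 h and 8 h than in the dark, with medians of 2.04, 2.35 and 2.62. Of all probe sets 31.9 percent passed as higher at 4 h and 31.1 percent at 8 h. The summed intensity of these markers differed among the jmj17-1 dark arrays, from 7721 to 14190, against 7997 to 8835 in wild-type dark.

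At 4 h the genotypes can be compared on arrays that neither the rule nor the jmj17-1 comparison of 2 h against dark used. Whether the selection of the table used the 4 h arrays is not known. One member passed, AT1G49230, higher in jmj17-1, and 0 were lower. Of all probe sets 0.862 percent passed as higher and 1.85 percent as lower, 2.72 percent in all. The median over the members was 0.00, with a range of -0.55 to 0.65, beside -0.01 over all probe sets. The median half-width of the 95 percent intervals, which are not adjusted for the number of probe sets, was 0.24. Larger differences could thus also be missed in the 39 members that did not pass, and the member at -0.55 was among these. The unadjusted p was under 0.05 for 4 members. In 20 members the jmj17-1 and wild-type arrays lay apart, as they did in 49.1 percent of all probe sets.

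AT1G49230, annotated to protein ubiquitination, read 5.53 and 5.73 at 4 h in jmj17-1, against 4.91 and 5.04 in wild type. The genotypes did not overlap, and the difference was 0.65 ± 0.13 (SE, 95 percent interval 0.37 to 0.93, adjusted p = 0.0174). At 2 h it read 4.29 and 4.23 in jmj17-1, against 3.90 and 3.61 in wild type, and at 8 h 5.91 and 5.55, against 5.45 and 5.20. In the dark jmj17-1 read 5.09, 5.07 and 5.12, against 5.14, 4.997 and 5.01 in wild type. The arrays were apart at each light time and overlapped in the dark. The gene was dim, with 2.89 percent of probe sets dimmer in wild type at 2 h and 11.8 percent at 4 h. The call was lost without wild-type 4 h replicate 1 (0.59, adjusted p = 0.103) or jmj17-1 4 h replicate 2 (0.55, adjusted p = 0.208), and adjusted p ranged from 0.00907 to 0.208 over the alternatives.

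The next 2 members did not pass. AT2G25200 read 7.34 and 7.42 at 4 h in jmj17-1, against 7.87 and 7.81 in wild type, a difference of -0.46 ± 0.13 (adjusted p = 0.0652). It passed without jmj17-1 dark replicate 2 (adjusted p = 0.0352). MIOX2 stood at -0.55 ± 0.18 (adjusted p = 0.134). UGT85A5 read 7.35 and 7.58 in jmj17-1, against 7.29 and 6.66 in wild type, a difference of 0.49 ± 0.24 (adjusted p = 0.364), and the wild-type arrays differed from each other by more than that. For COR27, COL9, BT2 and AT4G33980 the 4 h differences between genotypes were -0.02, 0.13, -0.02 and -0.08, with adjusted p from 0.674 to 0.977.

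**Figure D4:**
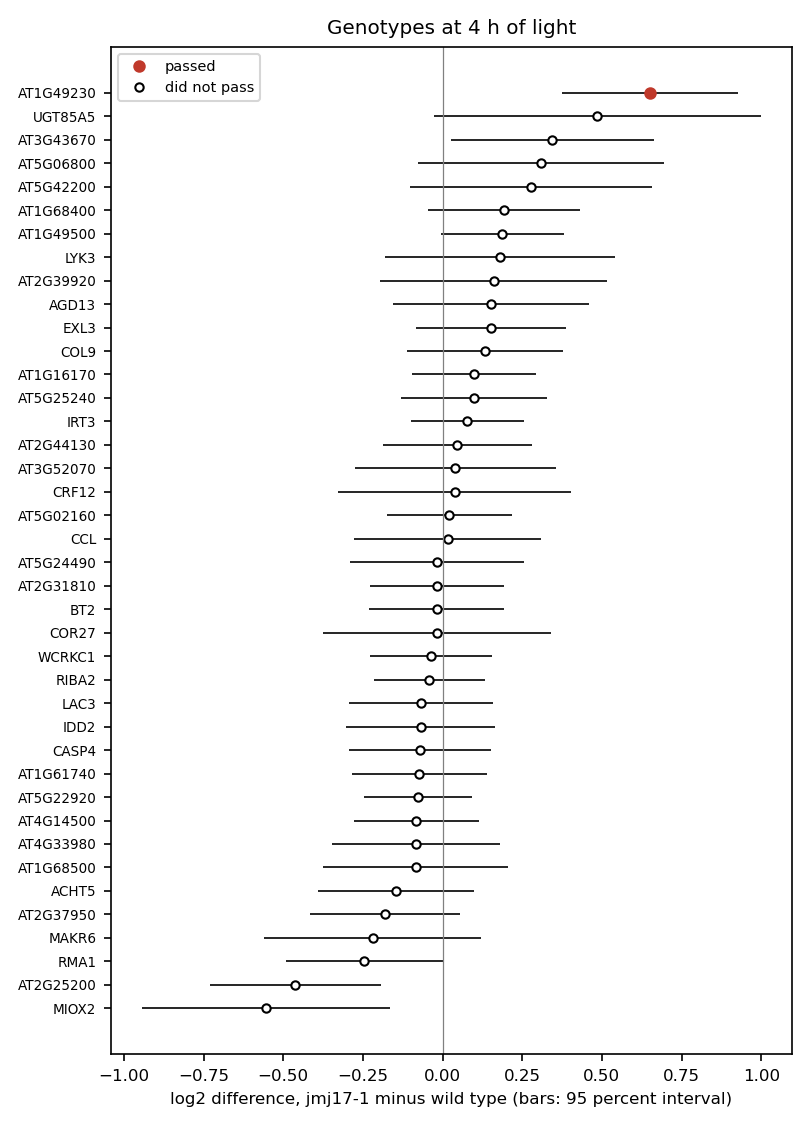
Log2 difference of jmj17-1 minus wild type at 4 h of light for each member, with its 95 percent interval, ordered from highest at the top. AT1G49230, the filled point at 0.65, is the member that passed, and the lowest is MIOX2 at -0.55.

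In the dark and at 2 h and 8 h the wild-type arrays are those that chose the members, so the genotype differences there are given without a test. In the dark they had a median of 0.03, with a range of -0.29 to 0.37. At 2 h the median was 0.11, with a range of -0.33 to 0.90, and the arrays lay apart in 25 members, beside 53.6 percent of all probe sets. At 8 h the median was 0.06, with a range of -0.69 to 0.57, and the arrays lay apart in 27, beside 49.8 percent.

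The highest genotype value at 2 h was that of UGT85A5, which read 5.62 and 6.04 in jmj17-1, against 4.92 and 4.93 in wild type. Both jmj17-1 arrays were higher. Its jmj17-1 dip was -0.67 ± 0.22, and -0.46 without jmj17-1 2 h replicate 1. The lowest value at 8 h was that of AT2G39920, annotated to dephosphorylation, which read 4.27 and 4.97 in jmj17-1, against 5.35 and 5.27 in wild type. The jmj17-1 arrays were lower and unlike each other. Against dark in jmj17-1 it was at -0.50 ± 0.15 (adjusted p = 0.00706), and at -0.15 (adjusted p = 0.293) without jmj17-1 8 h replicate 1. Its mean at 2 h fell within the dimmest 5 percent in both genotypes, so the exact size of its dip is not established. The highest value at 8 h was that of EXL3, which read 9.28 and 9.12 in jmj17-1, against 8.67 and 8.57 in wild type.

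CCL, named CCR-like in RefSeq, was at -1.55 ± 0.13 in jmj17-1 at 2 h and at 0.04 ± 0.13 at 8 h (adjusted p = 0.772). MAKR6, a membrane-associated kinase regulator gene, stood at -0.02 ± 0.15 at 8 h (adjusted p = 0.924), and AGD13, of the ARF-GAP family, at -0.03 ± 0.13 (adjusted p = 0.831). CRF12, a cytokinin response factor gene, was at -0.19 ± 0.16 (adjusted p = 0.281), and its 8 h against 2 h call (0.65) was lost without jmj17-1 8 h replicate 1 (0.50, adjusted p = 0.0660). AT3G52070 was 0.65 ± 0.13 and AT1G68400, a receptor-like kinase gene, 0.37 ± 0.10 above dark at 8 h (adjusted p = 0.000381 and 0.00391). AT1G61740, AT4G14500 and AT2G37950 were at 0.07, -0.09 and 0.04 from dark at 8 h, with adjusted p from 0.336 to 0.714. AT1G16170 was at -0.19 ± 0.08 (adjusted p = 0.0465), a call lost without jmj17-1 dark replicate 1 (adjusted p = 0.0884), jmj17-1 dark replicate 2 (adjusted p = 0.0867) or jmj17-1 8 h replicate 1 (adjusted p = 0.360).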

How the data were processed

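The scanner software was GCOS 1.4 (per the submitters' processing notes). RMA with quantile normalization had been applied by the authors, per the file headers. The deposited table gives intensity on a linear scale for 6847 probe sets, headed as raw data, but after log2 and median centring by probe set it equals the deposited log2 block beside it (largest difference 2.02e-06). A second deposited file of centred log2 values for 22810 probe sets was an alternative in which columns were matched to arrays by equal values (2 columns equal the array of their own title, 16 that of another), and the titles of the first table set every group. For array background and genome build, nothing is given in the sources used here. A single locus is named by 6514 probe sets, several by 285 and none by 48, and only the first could be members. Symbols come from the deposited table and RefSeq (TAIR10.1). All 40 member loci matched and 19 have a RefSeq symbol. No sequence is shown.

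Samples were grouped by title. Log2 intensities of all 18 arrays were fitted with 1 mean per group in limma 3.58.1 (R 4.3.3; residual degrees of freedom 10, prior 4.91, prior SD 0.114), with Benjamini-Hochberg adjustment over all 6847 probe sets, for 6 comparisons, and a call was an adjusted p under 0.05. The fit was tested on simulated data. Errors are SE of the fit, and array values are given in place of SDs. The alternatives were 2 other scalings, a filter on dim probe sets, fewer arrays, array weights, a replicate block, all probe sets and leaving out each array.

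The members and gene lists were chosen with earlier results of these data known. The rule for naming took the 12 lowest wild-type 2 h values, the 5 highest 8 h values, the 5 brightest, every member that passed between genotypes (at most 10), list members, the 5 smallest jmj17-1 dips, the 5 lowest jmj17-1 8 h values and the 3 nearest on either side of each threshold. It named 30 members, and the other 10 were named after their values were seen. The text gives all 5 marker lists, none of which holds a member, and 2 of 20 pathway lists. These are the starvation list, which holds BT2, and the clock list, chosen because 4 members carry a circadian term. The other pathway lists hold 0 members and are not described.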

Additional observations from a re-analysis of the deposited data

Results flagged for a closer look

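Outside the deposited list, 5 further probe sets met the same wild-type rule in the file of all 22810 probe sets. Their wild-type 2 h differences from dark ran from -1.14 to -1.01 and their 8 h differences from -0.19 to 0.77. No gene is named for them here. Their jmj17-1 differences at 2 h were 0.25, -0.49, 0.07, 0.24 and 1.24. The list holds almost only probe sets that pass in that jmj17-1 comparison, so these values are not set against those of the members.

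For 2 members every 4 h array lay on one side of the dark arrays in jmj17-1 and on the other side in wild type. The difference between the genotypes was not tested, since it uses the arrays that chose the members. MAKR6 read 6.06 and 6.23 at 4 h in jmj17-1, below its dark arrays of 6.27 to 6.36, and 6.18 and 6.56 in wild type, above its dark arrays of 5.92 to 5.97. The jmj17-1 change minus the wild-type change was -0.59. AT1G49500 read 11.45 and 11.50 in jmj17-1, above dark arrays of 11.09 to 11.36, and 11.31 and 11.26 in wild type, below dark arrays of 11.35 to 11.44. Its value was 0.31.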

How the results depend on the processing

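No alternative that was fitted turned round a direction that had passed. Of 2832 gene values recomputed, 50 lost and 53 gained a call, and 16 that did not pass either way moved by more than the spread between replicates. With the second file read by its own column labels, an alternative chosen after seeing the data, 459 genes met the rule and 0 of the 40 were kept. That labelling was not fitted, so the counts of lost and gained calls do not cover it. The number of members depended on the thresholds. It was 70 with a 2 h limit of -0.8, 22 with -1.2, 57 with an 8 h limit of -0.4 and 19 with 0. It was 50 with median-centred arrays (34 of the 40 kept), 56 after a further quantile normalization (36 kept), 46 with every probe set, and 36 to 44 with 1 wild-type array left out (33 to 36 kept). Leaving out 1 array gave 39 to 40 members called at 2 h against dark, 14 to 20 at 4 h, 15 to 19 at 8 h, 38 to 40 at 8 h against 2 h, 10 to 15 at 8 h against 4 h and 0 to 2 between genotypes at 4 h. With array weights 19 members (13 higher, 6 lower) passed at 8 h against 4 h and 2 between genotypes, and with the arrays of those 2 groups alone 18 (11 higher, 7 lower) passed at 8 h against 4 h. Between genotypes 0 passed without the dimmest 40 percent of probe sets, a filter that removes AT1G49230 and leaves 32 members. The lower calls in jmj17-1 at 8 h against dark were 1 with the arrays of those 2 groups alone and 2 with every probe set.

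Replicate numbers are shared between groups, but the labels give them no meaning and the correlations of replicate deviations between groups ran from -0.41 to 0.43, so they were not taken to pair samples. With the replicate block the counts over the 6 comparisons were 40, 19, 18, 39, 12 and 1, against 40, 18, 18, 39, 12 and 1 without it. With 2 arrays a light group, leaving 1 out assumes that the other varies as the remaining groups do. The array background was not used, so the lowest signals are uncertain, and only 2 members had a group mean among the dimmest 5 percent.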
